A study of Mus musculus with 6 samples.

Results

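The genes described here encode the folding, disulfide exchange, translocation and degradation machinery of the endoplasmic reticulum (ER), together with the stress sensors that control it on the IRE1/XBP1 and ATF6 side of the unfolded protein response. They were chosen by symbol, and all 34 were found, once each, among the 56748 genes of the count table. The data are RNA-Seq counts from ECs sorted from spinal cords at P16, with 1 library for each of 3 control mice and 3 TDP-43iΔEC mice. Control mice had the genotype Tardbpflox, and TDP-43iΔEC mice had the genotype Cdh5(PAC)-CreERT2;Tardbpflox, in which Cre driven by the *Cdh5* promoter of ECs removes exon 3 of *Tardbp*, the gene for the RNA-binding protein TDP-43. Both genotypes received tamoxifen at 1 mg/mL from P5 to P7, so the control mice share the floxed allele and the treatment but lack Cre. An effect of Cre itself therefore cannot be told apart from that of the deletion. The background was C57BL/6, and mice of both sexes were used.

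Proteins that enter the secretory pathway are threaded into the ER through the Sec61 channel, folded there by chaperones such as BiP, and joined by disulfide bonds with the help of protein disulfide isomerases. Proteins that fail to fold are sent back to the cytosol and destroyed by ER-associated degradation (ERAD). When unfolded proteins accumulate, IRE1 splices the mRNA of XBP1 and ATF6 is cut into an active transcription factor, and both factors raise the transcription of many of the genes described here. ECs use this machinery to make large secreted and membrane proteins, including those of the basement membrane.

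In TDP-43iΔEC ECs, *Hspa5*, the gene for BiP, was 2.00-fold its control level, and it was the only 1 of the 33 members tested to pass an adjusted p of 0.05. *Calr*, *Selenos*, *Ssr3*, *Creld2*, *P4hb*, *Pdia3*, *Ssr1* and *Herpud1* also had higher values in every TDP-43iΔEC mouse than in any control mouse and an unadjusted p under 0.05, but did not pass the adjusted threshold. The sensor genes *Atf6* and *Ern1* and the transcription factor gene *Xbp1* had overlapping groups. Summed over the 34 members, normalized counts came to 203342 ± 6136 among controls and 283942 ± 25623 among TDP-43iΔEC mice (mean ± SD, n = 3 each), a ratio of 1.40, and it was 1.33 without *Hspa5*.

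The response elements that ATF6 and XBP1 are known to bind were looked for in the promoters, because the members are classed together as targets of these factors. The ER stress response element (ERSE) was searched as CCAAT, then 9 bases, then CCACG, and ERSE-II as ATTGG, then 1 base, then CCACG, each on both strands. The promoter ran from 250 bases before to 50 bases after the start of the canonical transcript in GRCm39. An ERSE was present in 9 of the 34 members (26.5%), against 27 of 21757 protein-coding promoters (0.124%). An ERSE-II was present in 4 members (11.8%), against 15 of all promoters (0.0689%). These elements were first defined in promoters of such genes, among them that of *Hspa5*, so the shares describe the genes and are not a finding of this experiment. The ERSE matches are shown 5′ to 3′ in the direction of the motif, with the strand of the genome they were read from and with the motif letters in capitals.
Hspa5 (chr2:34662037-34662055, plus strand): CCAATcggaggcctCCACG
Hsp90b1, distal (chr10:86541502-86541520, minus strand): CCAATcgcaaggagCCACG
Hsp90b1, proximal (chr10:86541397-86541415, plus strand): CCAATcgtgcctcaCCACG
Calr (chr8:85573704-85573722, plus strand): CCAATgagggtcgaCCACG
Canx (chr11:50216627-50216645, minus strand): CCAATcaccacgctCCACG
Dnajc3 (chr14:119175239-119175257, plus strand): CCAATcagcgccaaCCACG
Creld2 (chr15:88703723-88703741, minus strand): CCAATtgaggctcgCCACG
Pdia6 (chr12:17316492-17316510, plus strand): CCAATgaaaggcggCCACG
Syvn1 (chr19:6096562-6096580, plus strand): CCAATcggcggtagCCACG
Derl3 (chr10:75729076-75729094, minus strand): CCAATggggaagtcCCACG

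The 9 bases between the fixed ends differed in all 10 matches. The *Hspa5* match ended 48 bases before the start of the canonical transcript, within the annotated gene, since other annotated transcripts start further upstream. In *Hsp90b1*, the pair of matches ended 123 and 18 bases before the start and faced opposite ways.

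The ERSE-II matches are shown in the same way, with the fixed letters in capitals.
Hyou1, distal (chr9:44290661-44290671, minus strand): ATTGGgCCACG
Hyou1, proximal (chr9:44290762-44290772, minus strand): ATTGGtCCACG
Dnajb11 (chr16:22676602-22676612, plus strand): ATTGGcCCACG
Manf (chr9:106769238-106769248, plus strand): ATTGGtCCACG
Herpud1 (chr8:95113005-95113015, plus strand): ATTGGgCCACG

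*Dnajb11* was the exception in position, since its match lay inside the first 50 transcribed bases, while the other ERSE-II matches lay before the start. The UPRE core TGACGTGG, a site of XBP1, was found in 1 member, *Hyou1* (2.94%), where it overlapped the distal ERSE-II, and in 157 of all promoters (0.722%). The short half-site CCACG, which is contained in ERSE and ERSE-II and, on the other strand, in the UPRE core, was found in 28 members (82.4%) and in 7772 of all promoters (35.7%). A match describes only the letters of this window.

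**Figure D1:**
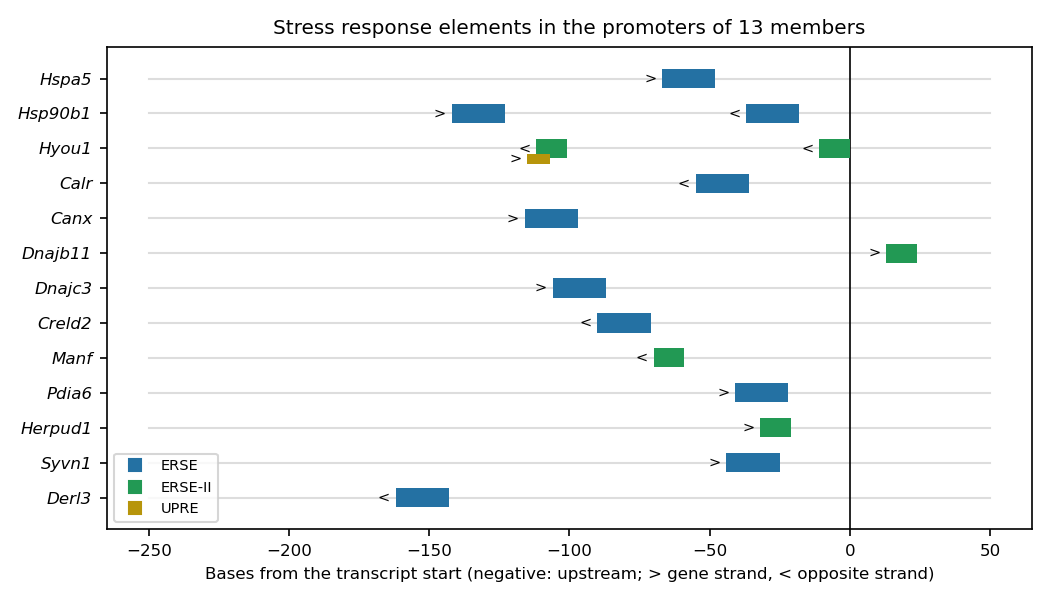
Position of each ERSE, ERSE-II and UPRE match in the promoters of the 13 members that held an ERSE or ERSE-II, in bases from the transcript start (x axis, negative upstream), with a bar for each match and a sign for its strand. The downstream ends of the matches lie from 143 bases before the start in *Derl3* to 24 bases after it in *Dnajb11*.

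Of the 13 members with an ERSE or ERSE-II, 12 were tested and 9 had non-overlapping groups, higher in TDP-43iΔEC mice, against 7.93% of all genes. Their median log2 fold change was 0.35. The 21 members without either element, all tested, had a median of 0.48, and 8 of them had non-overlapping groups. Members of both kinds thus had positive medians, and no test of the difference was made.

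The deleted gene was examined before the members. Normalized counts are the deposited counts divided by the library's size factor, and values are listed throughout for mice 1, 2 and 3 in that order. For *Tardbp* they were 1973, 2282 and 2069 among controls and 982, 599.9 and 433 in TDP-43iΔEC mice. It was lower in all 3 TDP-43iΔEC mice, with a log2 fold change of -1.62 ± 0.41 (SE) and an adjusted p of 0.287 (limma). The count covers the whole gene and not exon 3 alone, and 33.1% of its exonic bases overlap the antisense gene *Masp2*, so the remaining reads do not measure intact transcript. Library totals were 44041329 to 47270654 counts in control mice and 25704871 to 45010088 in TDP-43iΔEC mice, and 3 counts correspond to 0.0635 to 0.117 CPM. Of the members, 23 had at least 1000 counts in every library, 31 had at least 10, and 3 had a library at 0.

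Some libraries stood apart from the rest over all genes. The first dimension of a multidimensional scaling (31% of the variance) set control mouse 2 apart, which also had the fewest detected genes (12972), and the second (23.4%) set TDP-43iΔEC mouse 1 apart. EC markers were abundant in every library, with a summed level of 9586 to 13408 CPM in control mice and 9579 to 12049 CPM in TDP-43iΔEC mice over 7 genes, none of them at 0. Most of that sum came from *Cldn5*, and the single markers were not all level between genotypes. *Flt1* (ratio 0.63, adjusted p = 0.0635, limma), *Kdr* (ratio 0.85) and *Tek* (ratio 0.81) were lower in every TDP-43iΔEC mouse than in any control mouse, and the other 4 overlapped. The 5 red blood cell markers summed to 6336 to 9759 CPM in control mice and 2197 to 2909 CPM in TDP-43iΔEC mice, without overlap. Oligodendrocyte markers were at 288 to 546 CPM in control mice and 15.7 to 497 CPM in TDP-43iΔEC mice. The 18S ribosomal RNA gene took 14.8% to 18.5% of the counts in control mice and 8.04% to 13.6% in TDP-43iΔEC mice, without overlap, and mitochondrial genes took 1.67% to 6.46% and 4.98% to 6.11%. The part of these differences in the results below was not tested. The protocol used more than 1 number of PCR cycles without saying which library had which, so this was not tested. In bulk ECs, fewer cells of a type and less RNA per cell cannot be told apart.

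Across the whole table, 13107 genes were tested with limma, and 4 of them (0.0305%) were higher and 14 (0.107%) lower in TDP-43iΔEC mice at an adjusted p under 0.05. Among the 33 members tested, 1 was higher and 0 were lower. At an unadjusted p under 0.05, 9 members (27.3%) were higher and 0 were lower, against 4.26% of all genes higher and 5% lower. All 3 TDP-43iΔEC values lay above all 3 control values in 17 members (51.5%), against 7.93% of all genes, and below them in 0 members, against 7.1%. The log2 fold change was positive in 26 members (78.8%), against 49.3% of all genes. The median was 0.41 in the members and -0.02 over all genes. *Derl3* was the only member below the count filter. With groups of 3, the smallest 2-sided p of an exact permutation test on 1 gene is 0.1.

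The call depended on the tool. DESeq2's Wald test called 5 members higher (*Hspa5*, *Selenos*, *Calr*, *Ssr3* and *Herpud1*) and 0 lower, against 1.67% of all genes higher and 1.67% lower. edgeR's quasi-likelihood test called 0 members and 0 genes in all at the adjusted threshold, with 8 members higher and 0 lower at an unadjusted p under 0.05, against 357 genes higher (2.72%) and 491 lower over the whole table.

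**Figure D2:**
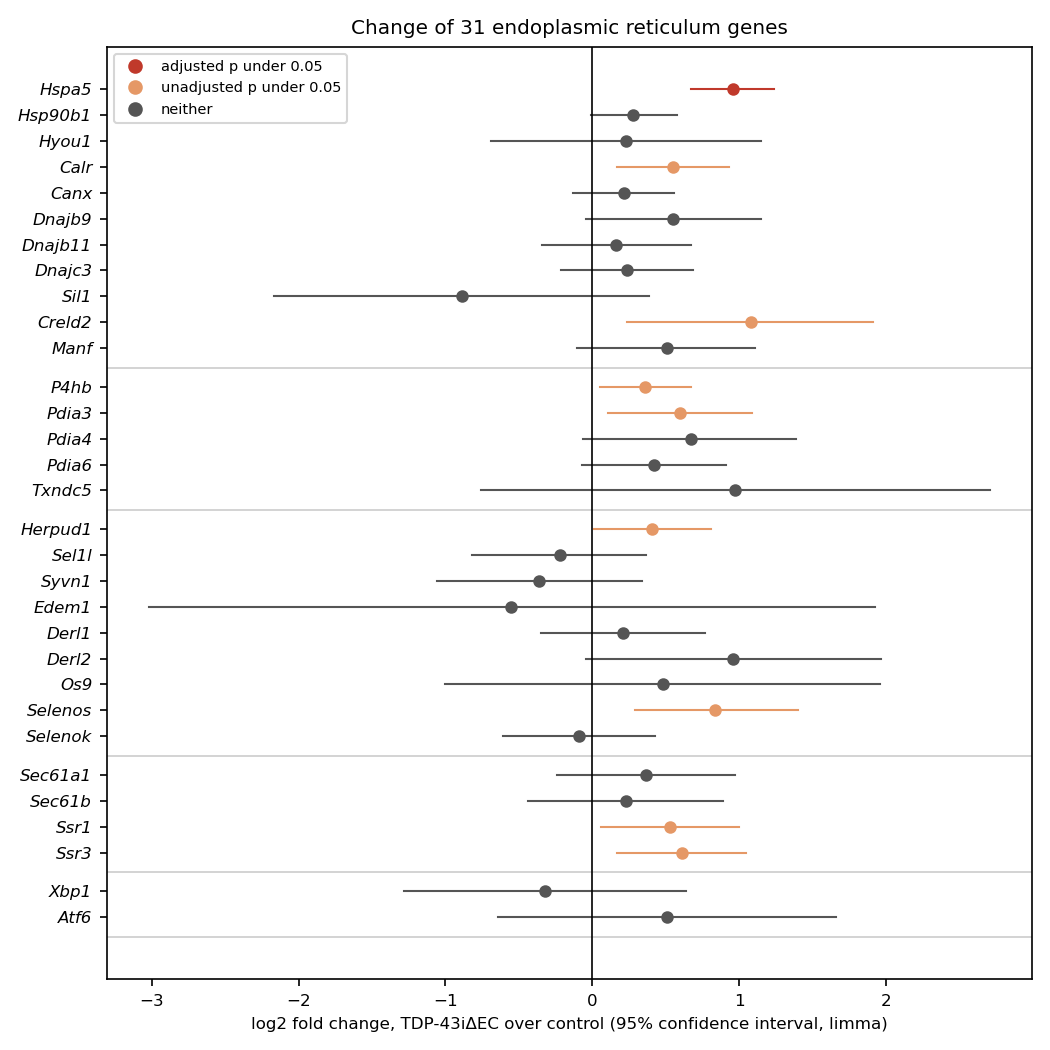
log2 fold change of TDP-43iΔEC over control mice (x axis) for 31 members, with 95% confidence intervals from limma, colored by whether the adjusted or the unadjusted p was under 0.05. *Hspa5* alone passed the adjusted threshold, at 0.96, and the widest interval belongs to *Edem1*. *Sdf2l1*, *Ern1* and *Derl3*, which have a library at 0, are left out.

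Among the 12 chaperones and co-chaperones, 9 had non-overlapping groups and 3 had an unadjusted p under 0.05 (limma), all higher in TDP-43iΔEC mice. Of all genes, 7.93% had non-overlapping groups in that direction and 4.26% were higher at that level. *Hspa5* encodes BiP, the main ER member of the HSP70 family, which also holds the stress sensors in check. It lies at chr2:34661982-34668880 in GRCm39. Its normalized counts were 21934, 22816 and 19488 among controls and 40040.4, 46812 and 41696 in TDP-43iΔEC mice. The lowest TDP-43iΔEC value was well above the highest control value, and the spread within each genotype was small. The means were 21413 ± 1724 and 42849 ± 3529.9 (SD, n = 3 each), and the log2 fold change was 0.96 ± 0.13 (SE, 95% confidence interval 0.67 to 1.24, adjusted p = 0.0318, limma). The log2 fold change stayed between 0.89 and 1.20 under 20 alternatives, but with any 1 of the 6 mice left out the adjusted p was between 0.0841 and 0.193, edgeR gave 0.176, and removal of the GC and length trend gave 0.985. DESeq2 gave 4.85e-11. Of its exonic bases, 44.2% overlap the antisense gene *Rabepk*, which had 36.5 to 376 normalized counts in control mice and 466 to 781 in TDP-43iΔEC mice. The log2 fold change of *Rabepk* was 1.95. The libraries are not stranded, and the part of *Rabepk* reads in the *Hspa5* count was not tested.

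*Hsp90b1* encodes the ER member of the HSP90 family, and per kilobase of transcript its mean over the 6 libraries (7871 normalized counts) exceeded that of *Hspa5* (6487). That order came from the controls (6755, 6905 and 7250.3 against 4429, 4607 and 3935 for *Hspa5*). In TDP-43iΔEC mice the levels were close (8206, 9392 and 8718 against 8084, 9451 and 8418). The normalized counts of *Hsp90b1* were 19116, 19541 and 20518 among controls and 23223, 26579 and 24671 in TDP-43iΔEC mice. The groups were separate, but the ratio was 1.26 and the adjusted p was 0.549. *Calr* encodes calreticulin, a soluble lectin chaperone that binds calcium. It had 8191, 8811 and 7411 normalized counts among controls and 12372, 13397 and 10745 in TDP-43iΔEC mice, a ratio of 1.5 with a log2 fold change of 0.55 ± 0.17 (SE). The adjusted p was 0.37 with limma and 0.0115 with DESeq2. Its membrane-bound relative calnexin (*Canx*) had 10127, 11765 and 11699.7 among controls and 13037, 13101 and 14058 in TDP-43iΔEC mice, a smaller ratio of 1.20 between groups that also did not overlap.

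*Creld2* and *Manf* encode small secreted proteins that are known to be induced by ER stress. *Creld2* had 1742, 762 and 1056 normalized counts among controls and 2614, 2629.6 and 1982 in TDP-43iΔEC mice, a ratio of 2.03 (log2 fold change 1.08 ± 0.37 (SE), unadjusted p = 0.017 and adjusted p = 0.449, limma). *Manf* had 1952, 2872 and 3077 among controls and 3257, 4179 and 4183 in TDP-43iΔEC mice, a ratio of 1.47, and 32.6% of its exonic bases overlap a gene on the same strand. The groups were separate in both genes, with control mouse 1 highest among the controls for *Creld2* and lowest for *Manf*. *Sdf2l1*, a partner of the BiP cycle, had 278, 0 and 316 normalized counts among controls and 603, 732 and 1127 in TDP-43iΔEC mice. Its ratio of means was 4.15, but control mouse 2 was at 0, so the fitted fold change depends on the added prior count, and the adjusted p was 0.549.

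The J-domain proteins stimulate the ATPase of BiP. *Dnajb9* had 3087, 2893 and 2532 normalized counts among controls and 5305, 3232 and 4158 in TDP-43iΔEC mice, a ratio of 1.49. *Dnajc3* had 4708, 4504 and 5158 among controls and 5219.6, 6312 and 6228 in TDP-43iΔEC mice, a ratio of 1.24. The groups of both genes were separate by small margins, and their adjusted p values were 0.558 and 0.696. *Dnajb11* overlapped, with 2904 to 3713 in control mice and 3598 to 3971 in TDP-43iΔEC mice. The nucleotide exchange factors of BiP also overlapped. *Hyou1* had 967, 618 and 723 among controls and 798, 1165 and 873 in TDP-43iΔEC mice. *Sil1* had 2221, 1034 and 2532 among controls and 528, 1751 and 1577 in TDP-43iΔEC mice, and it was the only chaperone gene with a negative log2 fold change (-0.89 ± 0.56 (SE), adjusted p = 0.624).

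**Figure D3:**
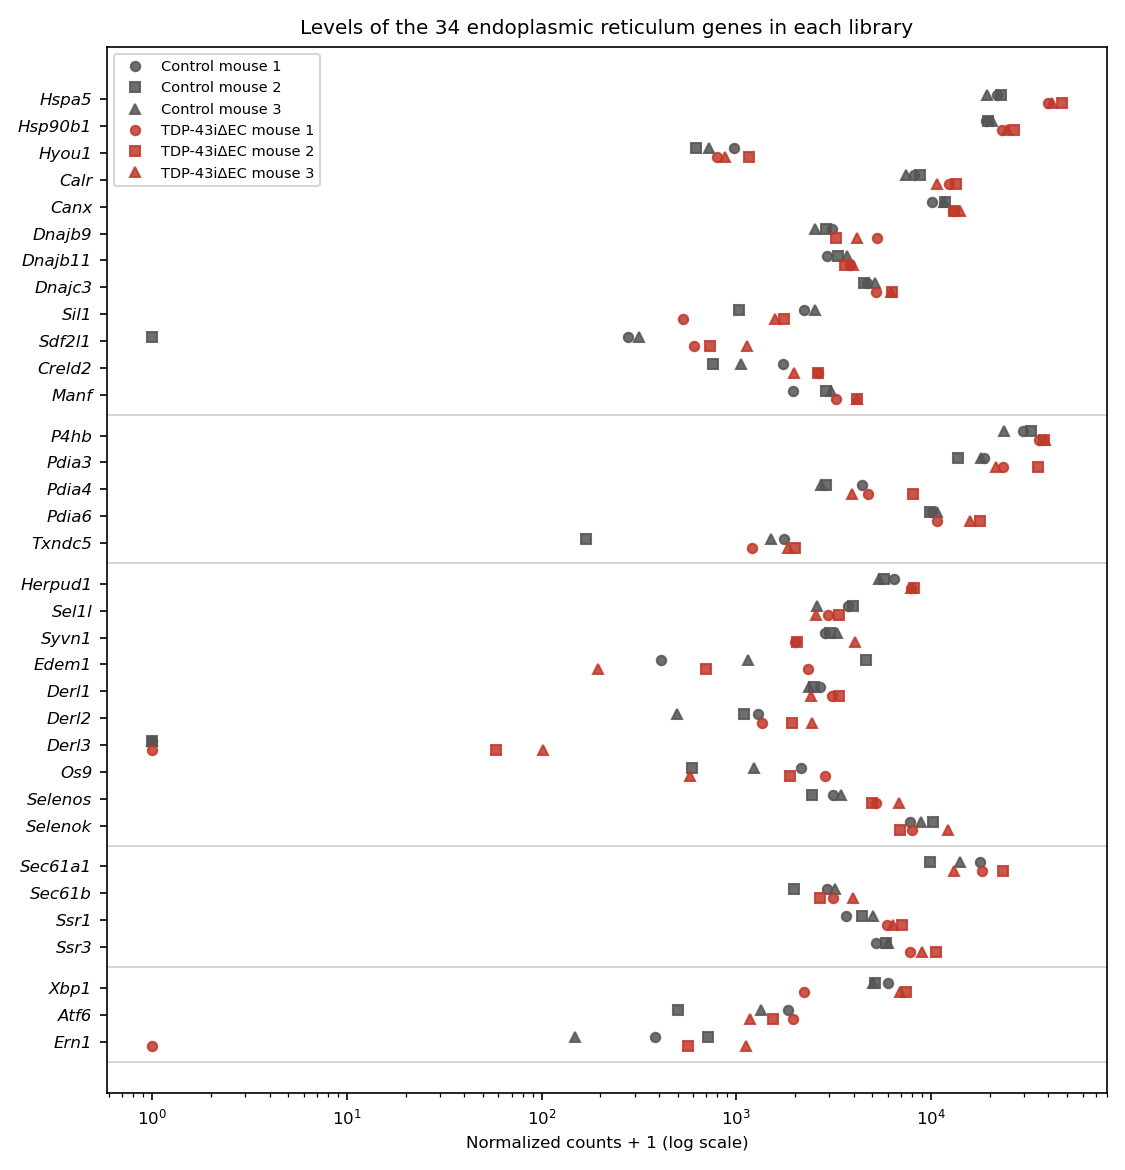
Normalized counts plus 1 (x axis, log scale) of the 34 members in each of the 6 libraries, grouped by role, with gray symbols for control mice and red symbols for TDP-43iΔEC mice. In *Hspa5*, the TDP-43iΔEC mice lie at 40040.4 to 46812 and the control mice at 19488 to 22816, while *Xbp1*, *Atf6* and *Ern1* have mixed symbols.

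All 5 protein disulfide isomerase genes had a positive log2 fold change, 3 had non-overlapping groups, and 2 had an unadjusted p under 0.05 (limma). Of all genes, 49.3% had a positive log2 fold change. Non-overlapping groups, higher in TDP-43iΔEC mice, were seen in 7.93% of all genes, and 4.26% were higher at that level. *P4hb* encodes protein disulfide isomerase itself, which is also a subunit of the collagen prolyl hydroxylase. Its normalized counts were 29743, 32482 and 23812 among controls and 36026, 38179 and 38592 in TDP-43iΔEC mice, and per kilobase of transcript it had the highest level of the 34 members (11272). The ratio was 1.31 (log2 fold change 0.36 ± 0.14 (SE), adjusted p = 0.487). *Pdia3*, the isomerase that works with calnexin and calreticulin, had 18704, 13794 and 18109 among controls and 23321, 35479 and 21587 in TDP-43iΔEC mice, a ratio of 1.59 in which TDP-43iΔEC mouse 2 was far above the other two. Its adjusted p was 0.471. Antisense or overlapping genes cover 21.2% of the exonic bases of *P4hb* and 26.5% of those of *Pdia3*.

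*Pdia6*, whose product acts on the luminal side of the stress sensors, had 10139, 9921 and 10686 normalized counts among controls and 10702, 17859 and 15909 in TDP-43iΔEC mice. TDP-43iΔEC mouse 1 exceeded the highest control mouse by very little, and the adjusted p was 0.572. *Pdia4* had 4432, 2882 and 2725 among controls and 4749.5, 8089 and 3946 in TDP-43iΔEC mice, and TDP-43iΔEC mouse 3 fell inside the control range. *Txndc5* had 1748, 168 and 1509 among controls and 1198, 1999 and 1848 in TDP-43iΔEC mice. Without control mouse 2, the library at 168, the log2 fold change of *Txndc5* went from 0.97 to -0.11.

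Of the 10 ERAD genes, 9 were tested, with 5 positive and 4 negative log2 fold changes. Non-overlapping groups were seen in 3 and an unadjusted p under 0.05 (limma) in 2, all higher in TDP-43iΔEC mice. Of all genes, 7.93% had non-overlapping groups in that direction and 4.26% were higher at that level. *Selenos* encodes a selenoprotein of the ER membrane that recruits the extraction ATPase to the degradation complex. It lies at chr7:65729392-65739153. It had 3134, 2459 and 3456 normalized counts among controls and 5191, 4952 and 6809 in TDP-43iΔEC mice, a ratio of 1.87 without overlap. The log2 fold change was 0.84 ± 0.25 (SE), and the adjusted p was 0.36 with limma and 0.00916 with DESeq2. *Herpud1*, a membrane protein that assembles the ubiquitin ligase complex, had 6421, 5741 and 5429.9 among controls and 7896, 8198 and 7910.0 in TDP-43iΔEC mice. The TDP-43iΔEC values of *Herpud1* were close to each other and all above the control values, with a ratio of 1.36 and an adjusted p of 0.522 with limma and 0.0194 with DESeq2. *Derl2*, a derlin of the retrotranslocation channel, had 1286, 1095 and 493 among controls and 1358, 1938 and 2439 in TDP-43iΔEC mice, a ratio of 2.00 with an adjusted p of 0.549.

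The core ligase genes did not show the same separation. *Syvn1*, the ubiquitin ligase of the complex, had 2851, 3009.6 and 3278 normalized counts among controls and 2000.2, 2036 and 4079.9 in TDP-43iΔEC mice, so the mutant mice lay on both sides of the controls. *Sel1l*, its adaptor, had 3753, 3956 and 2584 among controls and 2969, 3352 and 2556 in TDP-43iΔEC mice, with a log2 fold change of -0.22 ± 0.26 (SE) that turned to 0.01 with scaling to EC markers. *Derl1* had 2366 to 2702 in control mice and 2421 to 3384 in TDP-43iΔEC mice. *Selenok*, a partner of the derlins, had 7813, 10270.4 and 8863 among controls and 8016, 6918 and 12189 in TDP-43iΔEC mice, with a log2 fold change of -0.09 that turned positive with 4 of the other scalings or tools.

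*Edem1* and *Os9*, which recognize trimmed sugars on misfolded glycoproteins, varied widely between mice of the same genotype. *Edem1* had 411, 4647 and 1149 normalized counts among controls and 2327, 701 and 194 in TDP-43iΔEC mice. *Os9* had 2152, 591 and 1226 among controls and 2869, 1896 and 580.4 in TDP-43iΔEC mice. For both genes, the range within each genotype exceeded the difference between the means. *Derl3*, the derlin typical of secretory cells, had 0 counts in the 3 control mice and in TDP-43iΔEC mouse 1, and 48 and 71 counts in TDP-43iΔEC mice 2 and 3. It was below the count filter and has no fold change.

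All 4 translocon genes had a positive log2 fold change, against 49.3% of all genes. Separate groups and an unadjusted p under 0.05 (limma) were seen in *Ssr3* and *Ssr1*. Of all genes, 7.93% had separate groups, higher in TDP-43iΔEC mice, and 4.26% were higher at that level. *Ssr3* and *Ssr1* encode subunits of the translocon-associated protein complex, which helps some proteins to enter the ER. *Ssr3* had 5221, 5853 and 6026 normalized counts among controls and 7757, 10648 and 9011 in TDP-43iΔEC mice, a ratio of 1.60 (log2 fold change 0.61 ± 0.19 (SE), adjusted p = 0.395 with limma and 0.0116 with DESeq2). *Ssr1* had 3643, 4394 and 5010.3 among controls and 5959.7, 7061 and 6353 in TDP-43iΔEC mice, a ratio of 1.48 with an adjusted p of 0.5. The channel subunits overlapped. *Sec61a1* had 17751, 9911 and 14104 among controls and 18213, 23516 and 13058 in TDP-43iΔEC mice. *Sec61b* had 2924, 1969 and 3229 among controls and 3128, 2702 and 3979 in TDP-43iΔEC mice, and 24.6% of its transcript is shared with a pseudogene.

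None of the 3 sensor and factor genes had separate groups or an unadjusted p under 0.05. *Xbp1* had 6041, 5129.9 and 5019 normalized counts among controls and 2228, 7449.9 and 6925 in TDP-43iΔEC mice. TDP-43iΔEC mouse 1 was below all controls and the other two were above them, and without that mouse the log2 fold change went from -0.32 to 0.38, while DESeq2 gave 0.04 with all mice. *Atf6* had 1841, 503 and 1345 among controls and 1945, 1535 and 1171 in TDP-43iΔEC mice. *Ern1*, the gene for IRE1, had 383, 710.3 and 148 among controls and 0, 561 and 1121 in TDP-43iΔEC mice. Gene-level counts do not separate spliced from unspliced *Xbp1* or cut from intact ATF6, so the activity of either factor was not measured.

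Summed by role, the chaperones had the clearest separation. Their normalized counts summed to 78129 ± 859.7 among controls and 116522 ± 6431 among TDP-43iΔEC mice (SD, n = 3 each), a ratio of 1.49, and 1.3 without *Hspa5*. The disulfide isomerases had a ratio of 1.43 and the translocon genes 1.39, both without overlap between genotypes. The ERAD genes had a ratio of 1.16 and the sensors 1.09, and both groups overlapped. A sum is ruled by its most abundant members. The median log2 fold changes, which weigh each gene equally, were 0.39 for chaperones, 0.60 for isomerases, 0.21 for ERAD, 0.45 for the translocon and -0.32 for the sensors. The sensor median is the value of *Xbp1*, between *Atf6* at 0.51 and *Ern1* at -3.24. *Ern1* was at 0 in TDP-43iΔEC mouse 1, so its fitted value depends on the added prior count. The ratios of means were 1.03 for *Xbp1* and 1.36 for *Ern1*, so the negative median does not show lower sensor levels.

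**Figure D4:**
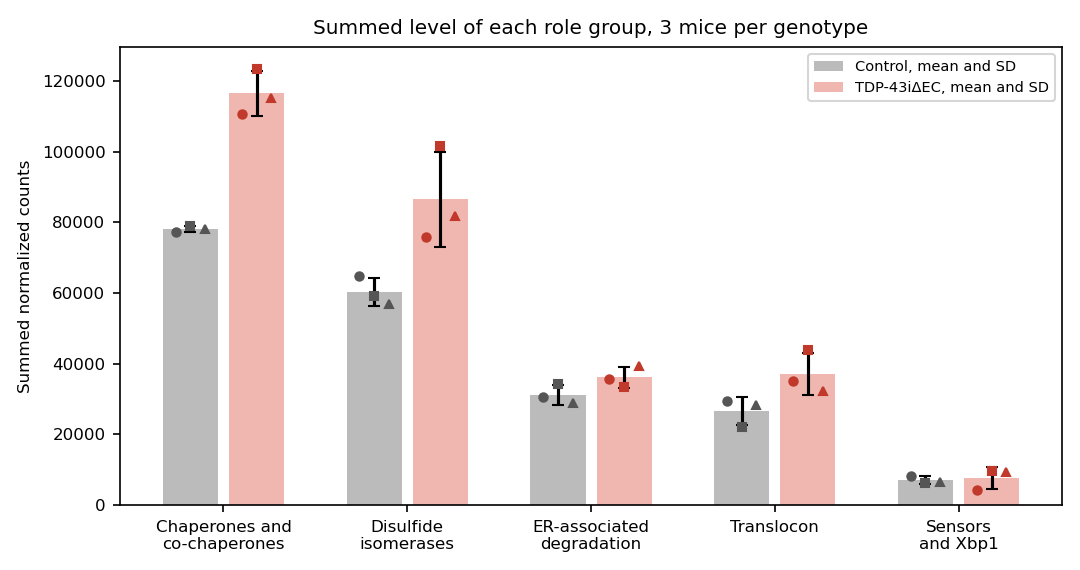
Summed normalized counts (y axis from 0) of each role group, with bars for the mean and SD of 3 mice per genotype and a symbol for each mouse. The chaperone bars stand at 78129 and 116522 counts, and the ERAD and sensor symbols overlap between genotypes.

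The libraries did not contribute equally. Relative to the mean of the control mice, the median member stood at 0.13, -0.01 and 0.06 on the log2 scale in control mice 1, 2 and 3 and at 0.43, 0.62 and 0.42 in TDP-43iΔEC mice 1, 2 and 3, while the median of all genes stood between -0.09 and 0.18. TDP-43iΔEC mouse 2 had the highest value in 16 of the 33 members, and control mouse 2 had the lowest in 11. TDP-43iΔEC mouse 2 also had the highest sum of lymphocyte and plasma cell markers (30.3 CPM, against 0 to 2.4 CPM in the other mice), mostly from *Sdc1*. Of the other markers in that list, *Ms4a1* had 132 counts and *Cd79a* 5 in TDP-43iΔEC mouse 2, and both were at 0 in the rest. *Cd3e* was at 0 in that mouse, and *Jchain* was at 0 in all 6 libraries. Without TDP-43iΔEC mouse 2, the median log2 fold change of the members was 0.34 and that of *Hspa5* was 0.89. Without control mouse 2 the member median was 0.25, beside an all-gene median of -0.17.

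**Figure D5:**
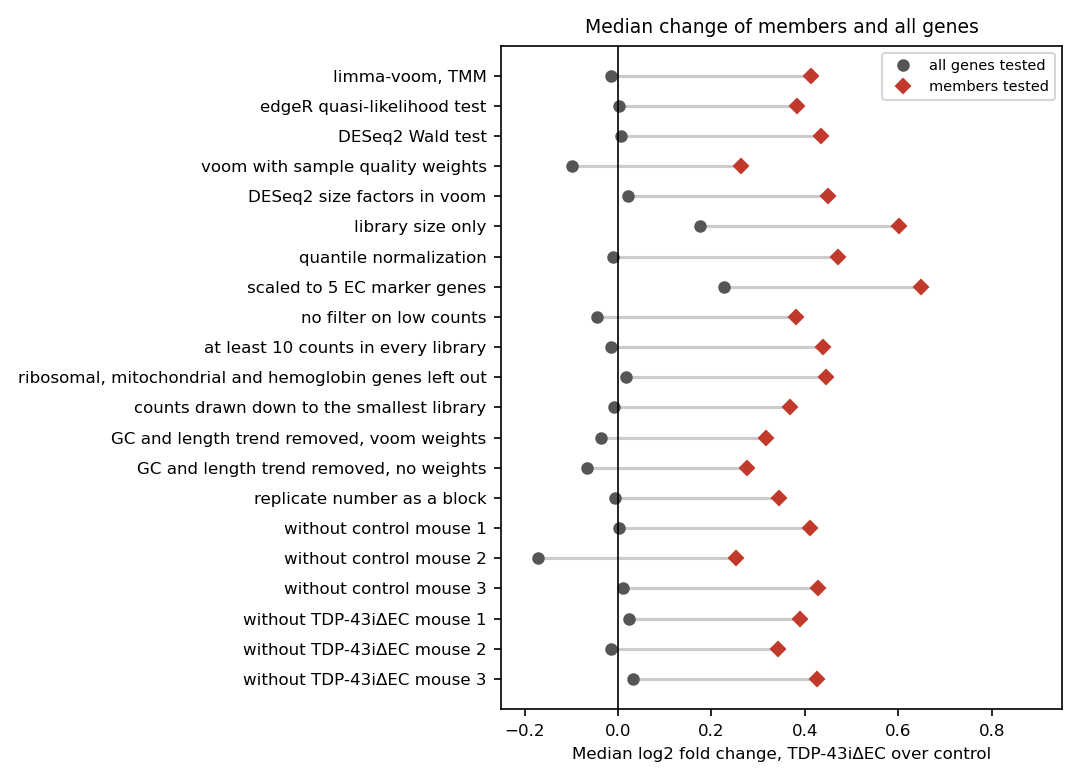
Median log2 fold change (x axis) of the members tested and of all genes tested, for the limma analysis and each of 20 alternatives. The member median lies above the all-gene median in each one, by 0.34 to 0.48.

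Neighboring steps of the same pathway were counted for comparison, in 7 further lists with 103 genes tested. With limma, 0 of these genes passed the adjusted threshold. At an unadjusted p under 0.05, 21 were higher and 1 lower, beside 4.26% of all genes higher and 5% lower. At their adjusted thresholds, edgeR called 0 and DESeq2 10, all higher, beside 1.67% of all genes higher with DESeq2. Among 15 genes of ER to Golgi transport and KDEL receptors, 4 were higher at an unadjusted p under 0.05 and 0 lower, with a median log2 fold change of 0.21. The KDEL receptors return escaped chaperones such as BiP to the ER. *Kdelr3* had 490.0, 1033 and 358 normalized counts among controls and 3744, 3828 and 2394 in TDP-43iΔEC mice, a ratio of 5.30 (log2 fold change 2.54 ± 0.46 (SE), adjusted p = 0.129, limma). *Kdelr2* had 4237, 4817 and 4144 among controls and 8173, 8151 and 9239.7 in TDP-43iΔEC mice, a ratio of 1.94 with an adjusted p of 0.192. The third receptor gene, *Kdelr1*, had overlapping groups (3034, 2282 and 2029 against 3608, 3964 and 2709, a ratio of 1.40 with an adjusted p of 0.603) and is named here after its values were seen. *Kdelr3* and *Kdelr2* were separate between genotypes without passing limma's adjusted threshold, and DESeq2 gave adjusted p values of 0.000114 for *Kdelr3* and 1.53e-08 for *Kdelr2*.

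Among 19 other translocon, signal peptidase and oligosaccharyltransferase genes, 2 were higher at an unadjusted p under 0.05, 0 were lower, and the median was 0.17. Of all genes, 4.26% were higher and 5% lower at that level. The 2 higher genes were the alternative catalytic subunits that attach sugars to asparagine. *Stt3a* had 8997, 7919.6 and 9335 normalized counts among controls and 15793, 15663 and 17645 in TDP-43iΔEC mice, a ratio of 1.87 with an adjusted p of 0.139 with limma and 9.64e-09 with DESeq2. *Stt3b* had a ratio of 1.71 and an adjusted p of 0.395, again without overlap.

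The remaining folding, degradation and ATF6-processing genes were counted in the same way, beside 4.26% of all genes higher and 5% lower at an unadjusted p under 0.05. Of 17 other folding and redox genes, 0 were higher or lower at an unadjusted p under 0.05, and the median was 0.09. The genes with the smallest p were *Hspa13* (ratio 1.66) and the glycoprotein folding sensor *Uggt1* (ratio 0.66), both with overlapping groups. Of 16 other ERAD genes, 2 were higher and 1 lower, with a median of 0.04. The conjugating enzyme *Ube2g2* had a ratio of 1.89 and the ligase *Rnf5* a ratio of 0.47, with adjusted p values of 0.471 and 0.452, and 29.4% of the exonic bases of *Rnf5* overlap another gene. Of 8 genes for the processing of ATF6 and other membrane-bound factors, 2 were higher and 0 lower, with a median of -0.03. *Creb3* had a ratio of 1.63 (adjusted p = 0.376 with limma and 0.0365 with DESeq2), with 48.7% of its exonic bases overlapping other genes, and *Nfyc*, a subunit of the factor that binds CCAAT, had a ratio of 2.45.

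On the PERK side of the response, 7 of 13 genes were higher at an unadjusted p under 0.05 and 0 were lower, with a median of 1.09. Of all genes, 4.26% were higher and 5% lower, with a median of -0.02. Some fits rest on a library near 0, and these genes are named for that reason. In control mouse 2, *Trib3* (among the 7), *Chac1*, *Sesn2*, *Vldlr* and *Cebpb* had 0 counts and *Eif2ak3* had 2. *Chac1* was also at 0 in TDP-43iΔEC mouse 3 and *Vldlr* in TDP-43iΔEC mouse 1. The fitted fold changes of these genes depend on the added prior count. Those of *Trib3* (5.62), *Sesn2* (4.82), *Eif2ak3* (3.15) and *Chac1* (1.94) lie above the median of 1.09, and those of *Cebpb* and *Vldlr* below it. The median of 1.09 thus depends in part on such fits. The transcription factor gene *Atf4* had a ratio of 1.65 (adjusted p = 0.271 with limma and 3.33e-06 with DESeq2). *Ddit3*, which encodes CHOP, had a ratio of 2.84 (adjusted p = 0.334 with limma and 0.00934 with DESeq2). Of its exonic bases, 82.4% overlap genes on the other strand, *Mars1* first among them. The symbol *Ddit3* had 2 entries, and the one with the highest total was used.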

How the data were processed

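RNA-Seq libraries of sorted spinal cord ECs were made with SMARTseq2. Per the labels and methods, the authors aligned reads to GRCm39 with STAR 2.7.8a and quantified genes with RSEM 1.3.0, and deposited estimated counts that are whole numbers (0 values were not whole), unscaled and unfiltered. PCR copies were not removed by molecular identifiers, so floors cover counting error only. Every library of 3 control and 3 TDP-43iΔEC mice was used, grouped by the labels.

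TDP-43iΔEC and control mice were compared in R 4.3.3 with limma 3.58.1 (voom) after TMM and filterByExpr of edgeR 4.0.16, with Benjamini-Hochberg adjustment over all 13107 genes tested and a threshold of 0.05. Normalized counts used the size factors of DESeq2 1.42.0. No test was made over the members as a set. The procedure was tested on simulated counts. Genes named are all members, *Tardbp* and, in each further list, the 2 with the smallest p. Members and lists were chosen with earlier results of these data known. Positions, overlaps and promoters came from GENCODE M39, which matched 98.7% of identifiers. Shared sequence was counted from 51 bases at 97% identity. Protein ends were not analysed here.

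Alternatives were edgeR, DESeq2, quality weights, scaling, count filters, rRNA, mitochondrial and hemoglobin genes left out, equal depth, a GC and length trend removed by loess (span 0.3), the replicate number as a block, and each mouse left out. Each changed 1 choice, except that the trend was removed both with and without voom weights and that DESeq2 brought its own size factors. DESeq2 also had no count filter before testing (20019 genes), and its own filter on mean count left 13983 genes with an adjusted p. Counting of non-overlapping members under other scalings and without each mouse was added after seeing the data.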

Additional observations from a re-analysis of the deposited data

How the results depend on the processing

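Of the 33 members, 1 passed the adjusted threshold as higher, against 0 with edgeR, with scaling to 5 EC marker genes, and with the GC and length trend removed with or without weights, 5 with DESeq2, and 0 to 0 with each mouse left out. The 9 members higher at an unadjusted p under 0.05 became 17 with DESeq2, 16 with library size only, 17 with EC scaling, 4 and 2 with the GC and length trend removed (with and without weights), and 5 to 9 with each mouse left out, the 5 without control mouse 2. The share of all genes higher at that level moved too, from 4.26% to 4.57% with DESeq2, 6.96% with library size only, 7.09% with EC scaling and 2.07% and 2.27% with the trend removed. With each mouse left out it was 2.69% to 4.51%, the 2.69% without control mouse 2. Members lower at that level numbered 0 to 1 with each mouse left out, the 1 without control mouse 2. Without that mouse, 387 of 14381 genes were higher and 929 lower. The member median of 0.41 became 0.26 with sample quality weights, 0.60 with library size only, 0.65 with EC scaling, 0.28 with the GC and length trend removed without weights, and 0.25 to 0.43 with each mouse left out. The median of all genes moved to 0.18 with library size only, 0.23 with EC scaling and -0.17 without control mouse 2. The count of 17 non-overlapping members was 15 to 20 under the alternatives added later, beside 7.4% to 13.8% of all genes. The causes were not tested.

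Single genes changed sign as follows: *Sel1l* to 0.0125 with EC scaling, *Os9* to -0.0203 with quality weights, *Selenok* to 0.0093 with DESeq2, 0.10 with library size only, 4e-04 with quantile normalization and 0.16 with EC scaling, *Xbp1* to 0.0361 with DESeq2, and *Ern1* to 0.41 with edgeR, 0.44 with DESeq2 and 4e-04 with the replicate block. With each mouse left out, the ranges that crossed 0 were -0.11 to 1.56 for *Txndc5*, -1.73 to 0.25 for *Edem1*, -0.13 to 1.02 for *Os9*, -0.27 to 0.0501 for *Selenok*, -0.0071 to 0.38 for *Sec61b*, -0.67 to 0.38 for *Xbp1*, -0.0555 to 0.90 for *Atf6* and -4.76 to 1.14 for *Ern1*.

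The labels do not say whether mice with the same replicate number were paired. Same-numbered mice had correlations of -0.0607, -0.111 and -0.0213, and differently numbered mice had -0.0391 to 0.114. No mouse correlated best with the mouse of its own number, so no sign of pairing was seen. All of these correlations were weak and came from few mice, so the check cannot decide whether the mice were paired. With the replicate number as a block, 1 member passed as higher (*Hspa5*, adjusted p = 0.0387, limma), and no adjusted call of a member changed. At the unadjusted level 9 members were higher, beside 3.13% of all genes. At the unadjusted level, *Herpud1* no longer counted among the 9 and *Pdia6* took its place.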

Other observations

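Chaperones outside the ER were counted beside those inside it. Of 15 cytosolic and mitochondrial chaperone genes, 4 were higher in TDP-43iΔEC mice at an unadjusted p under 0.05 and 0 were lower. Of all genes, 4.26% were higher and 5% lower at that level. At the adjusted threshold, 0 passed with limma or edgeR and 1 with DESeq2, beside 1.67% of all genes higher with DESeq2. The median log2 fold change was 0.37. *Hspa1a*, an inducible cytosolic HSP70, had 26839, 18249.6 and 26604 normalized counts among controls and 38379.9, 38509 and 49218 in TDP-43iΔEC mice, a ratio of 1.76 with an adjusted p of 0.271 with limma and 0.0132 with DESeq2. Its near-identical copy *Hspa1b* makes the count of either gene uncertain. *Hsph1*, its nucleotide exchange factor, had 1456, 344 and 967 among controls and 3091, 1713 and 4791 in TDP-43iΔEC mice, a ratio of 3.47 with an adjusted p of 0.404 with limma and 0.0946 with DESeq2. The groups did not overlap in either gene.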
